A study of Mus musculus with 2 samples.

Results

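Radial precursors of the late embryonic mouse cortex that carried few mitotic transcripts were described from single-cell RNA counts. They were chosen by a rule on the counts themselves. A cell of the embryonic day 18 (E18) library was kept with 500 or more detected genes and with 10% or less of its unique molecular identifiers (UMIs, 1 per captured transcript) from mitochondrial genes. It had to hold UMIs of at least 4 of the 8 markers Slc1a3, Aldoc, Ttyh1, Ddah1, Mt3, Hes5, Sox9 and Hopx. Its summed UMIs of Mki67, Top2a, Cenpf, Birc5 and Ube2c could not exceed 2, its Eomes UMIs could not exceed 1, and Pdgfra had to be at 0. This gave 116 of 2631 filtered E18 cells, a share of 4.41% (3.66 to 5.26, exact Clopper-Pearson). Intervals are given at 95% throughout and hold counting error alone.

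The library came from CD1 mice at E18 and held cortex together with the dorsal ventricular-subventricular zone (V-SVZ), the germinal layer beside the lateral ventricles. A second library, used here in 1 paragraph, came from postnatal day 2 (P2) mice of the genotype Emx1Cre;R26Eyfpfl/fl and held dorsal and lateral V-SVZ with the cortex taken off. The Emx1 promoter drives Cre in the cortical primordium, so the EYFP reporter in those mice marks cells of pallial descent. Both suspensions were made with papain and sorted as propidium iodide-negative, DRAQ5-positive cells. Neither the number of mice per library nor pooling is given in the sources used here, and each age has 1 library, so no test between samples was possible and no p-value is given. Cells of 1 library are not replicates.

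Radial precursors, also called radial glia, are the neural stem cells of the developing cortex. Their bodies lie in the ventricular zone, their fibres span the cortical wall, and Notch signalling through Hes1 and Hes5 keeps them undifferentiated. In the cortex they produce excitatory neurons, largely through intermediate progenitors that express Eomes (Tbr2), and around birth they turn to making astrocytes and oligodendrocyte precursors or persist as stem cells of the postnatal V-SVZ.

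The E18 matrix held 19986915 UMIs in 2922 barcodes. The radial precursors held 805520 UMIs, with a median of 6676.5 per cell (lowest 1092, highest 29279), close to the median of 6628 in the 2515 other E18 cells. Levels are given as UMIs of the gene per 1000000 UMIs summed over a group of cells (CPM). A gene was called higher or lower where 2 groups differed by 2-fold or more (log2 ratio of 1) and the counting interval of the ratio left out 0, among genes with 50 or more UMIs in both groups together. In a group with 0 UMIs the level was set to 3 UMIs over the group, so that its fold is a lower bound. The rule sorts the same cells that are compared, so every difference from the other cells is a description of the chosen cells and not a test.

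Of the 116 cells, 30 held all 8 rule markers, 43 held 7, 17 held 6, and 13 each held 5 and 4. Just outside the limit, 35 cells with 3 markers met the other conditions. Fabp7, a brain fatty acid binding protein of radial glia that is not in the rule, stood at 250 CPM in these 35 cells. It stood at 1340 CPM in the members with 4 markers, 10362 CPM in those with 5 and 30101 CPM in those with all 8. Tubb3, a neuronal tubulin, stood at 4575, 1567, 112 and 173 CPM in the same cells. Among the 13 members with 4 markers, 1 cell held 80 of 142 Fabp7 UMIs, and without it the level was 621 CPM. Of these 13, 4 cells rich in neuronal markers held 7 Fabp7 and 151 Tubb3 UMIs, and the other 9 held 135 and 15. From 5 markers on Fabp7 stood far above Tubb3.

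**Figure D1:**
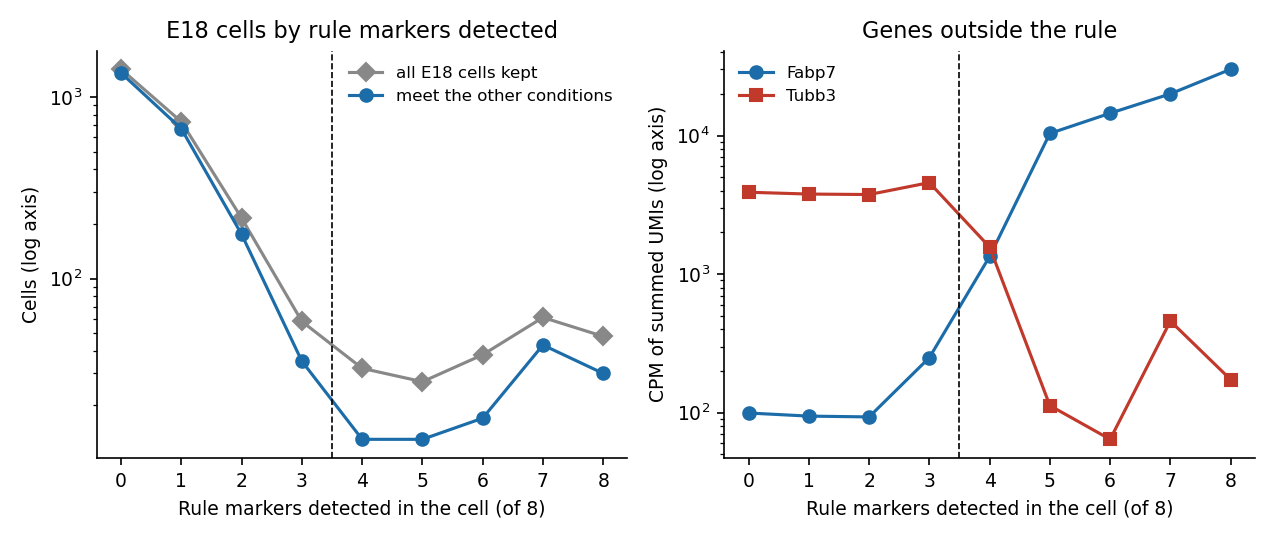
Left, number of E18 cells (log axis) by how many of the 8 rule markers were detected, for all 2631 filtered cells (grey) and for cells that met the other conditions of the rule (blue), with the limit of 4 markers as a dashed line. Right, summed level of Fabp7 and Tubb3 in CPM (log axis) in the cells that met the other conditions; Fabp7 stood at 250 CPM with 3 markers and 10362 CPM with 5, and Tubb3 at 4575 and 112 CPM.

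Each rule marker was also read in cells chosen by the other 7 (4 or more of those 7). The glutamate transporter gene Slc1a3 was then detected in 95.3% of 107 chosen cells (89.4 to 98.5) and in 14.3% of the rest. Aldoc, an aldolase of astroglia, was detected in 87.5% of 112 and in 5.60% of the rest, with the highest log2 ratio of the 8, 6.03 (5.88 to 6.18). The Notch target Hes5 was detected in 63.6% of 110 cells against 4.64%, and Hopx, a homeodomain protein of radial glia and adult stem cells, in 60.2% of 113 against 5.12%. Sox9, a transcription factor of glial and stem cells, had the lowest log2 ratio, 3.64 (3.41 to 3.87). Each of the 8 markers stood higher in cells chosen without it, with log2 ratios from 3.64 to 6.03.

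The label "outside cell cycle" holds only in part. Of the members, 87 had 0 UMIs of the 5 mitotic rule genes, 21 had 1 and 8 had 2. Genes of DNA replication were nevertheless present: 42 of 116 members had UMIs of 4 or more of 20 S phase genes, 24 had 8 or more, and 1 had all 20. Of these 42 cells, 27 had no UMI of the mitotic rule genes. The median number of S phase genes detected was 2 in the members and 2 in the other E18 cells. Median levels were 424 and 314 CPM, and upper quartiles 1046 and 520 CPM. Of 54 cycling radial cells, which met the same rule but with more than 2 mitotic UMIs, 49 had 4 or more S phase genes and 38 had 8 or more. The share of other E18 cells with 4 or more S phase genes was not counted. The members are therefore called radial precursors here, with no statement on the cycle.

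Markers of other cell types were read in the same cells. Intermediate progenitor markers summed to 269 CPM (235 to 308) against 183 CPM, with 117 of the UMIs from Mfap4 and 86 from Gadd45g. Neurog1, Nhlh1 and Neurod4 of that list were at 0. Of 8 microglia markers 1 had a UMI, a single one, and the 5 Cajal-Retzius and 5 erythroid genes were all at 0. Oligodendrocyte precursor markers summed to 400 CPM against 125 CPM, with Sox10, Gpr17 and Neu4 at 0. Of these 322 UMIs in the members, 200 came from Olig1 and most of the rest from Olig2. The rule had placed cells with Pdgfra UMIs among the other cells. The 8 interneuron markers summed to 22.3 CPM (13.2 to 35.3) against 211 CPM in the other cells, with Gad1 and Lhx6 at 0. Endothelial markers summed to 37.2 CPM (25.1 to 53.2) against 45.6 CPM and mural markers to 74.5 against 58.04 CPM, with Pecam1, Cdh5, Flt1, Ly6c1, Esam and the mural gene Vtn at 0. Ependymal markers summed to 34.8 CPM against 1.93 CPM, from Foxj1, Rsph1 and Dynlrb2.

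The 8 pan-neuronal markers (Tubb3, Dcx, Stmn2, Gap43, Rtn1, Snap25, Mapt, Elavl4) summed to 2746 CPM in the radial precursors and 10361 CPM in the other cells. Of the members, 115 held at least 1 of these UMIs, and 8 cells held 51.6% of them. These 8 held 6 or more of the markers and 5 held all 8 markers, and 4 of the 8 cells had only 4 or 5 rule markers. They had a median of 12319.5 UMIs, and 5 of them lay among the highest 5% of doublet scores. One cell of 29279 UMIs, with 4 rule markers and all 8 pan-neuronal ones, held 91.7% of the Peg10 and 78.7% of the Meg3 UMIs of the members. A cell of 8855 UMIs, likewise with 4 rule markers and all 8 pan-neuronal ones, held 99.1% of the Nts UMIs. Whether these are doublets was not tested further. Some results that they touch are given with and without these 8 cells, called neuron-rich below, and the others with them only.

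Against all other E18 cells, 1505 of 11211 tested genes were called higher in the radial precursors (13.4%) and 1396 lower (12.5%). Genes of radial glia outside the rule stood highest: 13 of 14 were called higher and 0 lower, with a median log2 ratio of 4.18 against -0.04 over all tested genes. Fabp7 (chromosome 10, 57784881 to 57788450, GRCm38) held 14920 UMIs in 113 of the 116 cells, 18522 CPM against 574 CPM in the other cells. Its UMIs were found in 97.4% of the members and 42.9% of the other cells, 94.4% and 28.3% after thinning each cell to 3000 UMIs. In 23 cells with microglial or vascular markers, which should lack it, the thinned share was 17.4%. The secreted glycoprotein gene Mfge8 stood at 1090 against 53.9 CPM, the intermediate filament gene Vim at 1630 against 91.2 CPM and Pdpn, a membrane glycoprotein, at 271 against 5.85 CPM. The transcription factor genes Sox2 and Pax6, which keep cortical progenitors in their state, had log2 ratios of 3.14 and 3.19. Cdh2, the cadherin of apical junctions, was not called (0.81). Per cell, the 14 genes summed to between 171 and 106496 CPM in the members, with a median of 28095 CPM against 561 CPM in the other cells.

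Tnc, the gene of the matrix protein tenascin C (chromosome 4, 63959785 to 64047015), had the highest rank of all genes outside the rule. It stood at 390 CPM (348 to 435) in the radial precursors and 7.83 CPM in the other cells, a log2 ratio of 5.64 (5.35 to 5.93). It was detected in 69.8% of the members and 2.39% of the other cells, and in 52.8% against 1.20% after thinning. It was at 0 in the 23 microglial and vascular cells, which allows a share of cells with a UMI of up to 13.04% (3 cells of 23). Of the genes marking basal (outer) radial glia in other species, 7 of 8 tested were called higher, with a median of 3.32, among them Ptprz1 at 1276 CPM and Acsbg1 at 137 CPM. Moxd1 held 2 UMIs and Fam107a 1.

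Genes of astroglia were also high in these embryonic cells: 20 of 21 tested were called higher and 0 lower, with a median log2 ratio of 3.62. Aldh1l1, a folate enzyme used as a marker of astrocytes, stood at 215 against 4.61 CPM and Mlc1, a membrane protein of astrocytic endfeet, at 184 against 4.13 CPM. The lipoprotein gene Apoe stood at 2114 against 95.6 CPM, and Cst3, a secreted protease inhibitor, at 2798 against 384 CPM. Some astrocyte genes had few UMIs: S100b and Gjb6 had 0, Gpr37l1 1, Aqp4 24 in 20 cells and Gfap 54 in 30 cells. Microglial and vascular cells also carried Apoe (5104 CPM) and Cst3 (6005 CPM), while the members held 1 UMI of microglia markers. Per cell, the 25 genes summed to between 474 and 76685 CPM, with a median of 6560 in the members and 574 in the other cells.

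Metabolic lists divided. Of 16 enzymes of fatty acid oxidation, 15 were called higher and 0 lower, with a median of 2.08: Acadl stood at 107 against 5.74 CPM and Cpt1a, the entry step of the pathway, at 29.8 against 2.31 CPM. Of 11 genes of serine, glycine and one-carbon metabolism 8 were called higher, with a median of 2.34, led in level by Phgdh at 718 against 31.5 CPM. None of 16 nuclear-encoded genes of the respiratory chain was called in either direction, and their median was -0.11. Glycolysis enzymes had 3 of 17 called higher and 1 lower, with a median of 0.84. Hk1, the main hexokinase of brain, was the lower one (14.9 against 47.1 CPM). The cycling radial cells described below were closer to the members. Per-cell medians for fatty acid oxidation were 1810 CPM in the members, 1309 in the cycling radial cells and 347 in all other cells. For serine, glycine and one-carbon metabolism they were 2032, 1835 and 133 CPM, and for glycolysis 5900, 6562 and 3914 CPM.

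Genes of matrix and secreted proteins were called higher in 19 of 22 cases and lower in 1, with a median of 2.07. Sparc stood at 579 against 34.5 CPM (2483 CPM in the microglial and vascular cells) and the growth factor gene Ptn at 2663 against 1226 CPM. The gene called lower was Igfbpl1, at 216 against 1564 CPM. Other genes of the 20 with the highest rank were the Notch receptor Notch2, the sphingosine phosphate receptor S1pr1, the secreted protein Cyr61, the protease Htra1, and Emp2, Pbxip1, S100a6, Slc14a2, Tmem100, Pter, Lrp4, Ccdc80 and Slco1c1. Their log2 ratios lay between 4.82 for Slco1c1 and 5.72 for Pbxip1. Peg10 also ranked there (5.23), but without the neuron-rich cells its log2 ratio was 0.54 (-2.56 to 2.49).

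The genes with the lowest rank were neuronal. Npy, a neuropeptide, stood at 8.69 CPM against 386 CPM (log2 -5.47), and Sla and Runx1t1 had log2 ratios of -5.42 and -4.43. The neuronal transcription factors Mef2c, Neurod2 and Neurod6 stood at -3.52, -3.17 and -3.08, and Tubb3 at -3.01. Syt4, Mpped1 and Rbfox1 completed the 10. Without the neuron-rich cells these values moved away from 0, to -5.40 for Mef2c, -5.06 for Neurod2 and -4.99 for Tubb3. Of 17 excitatory neuron genes 15 were called lower (16 without those cells), with a median of -2.65 (-4.57 without them).

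**Figure D2:**
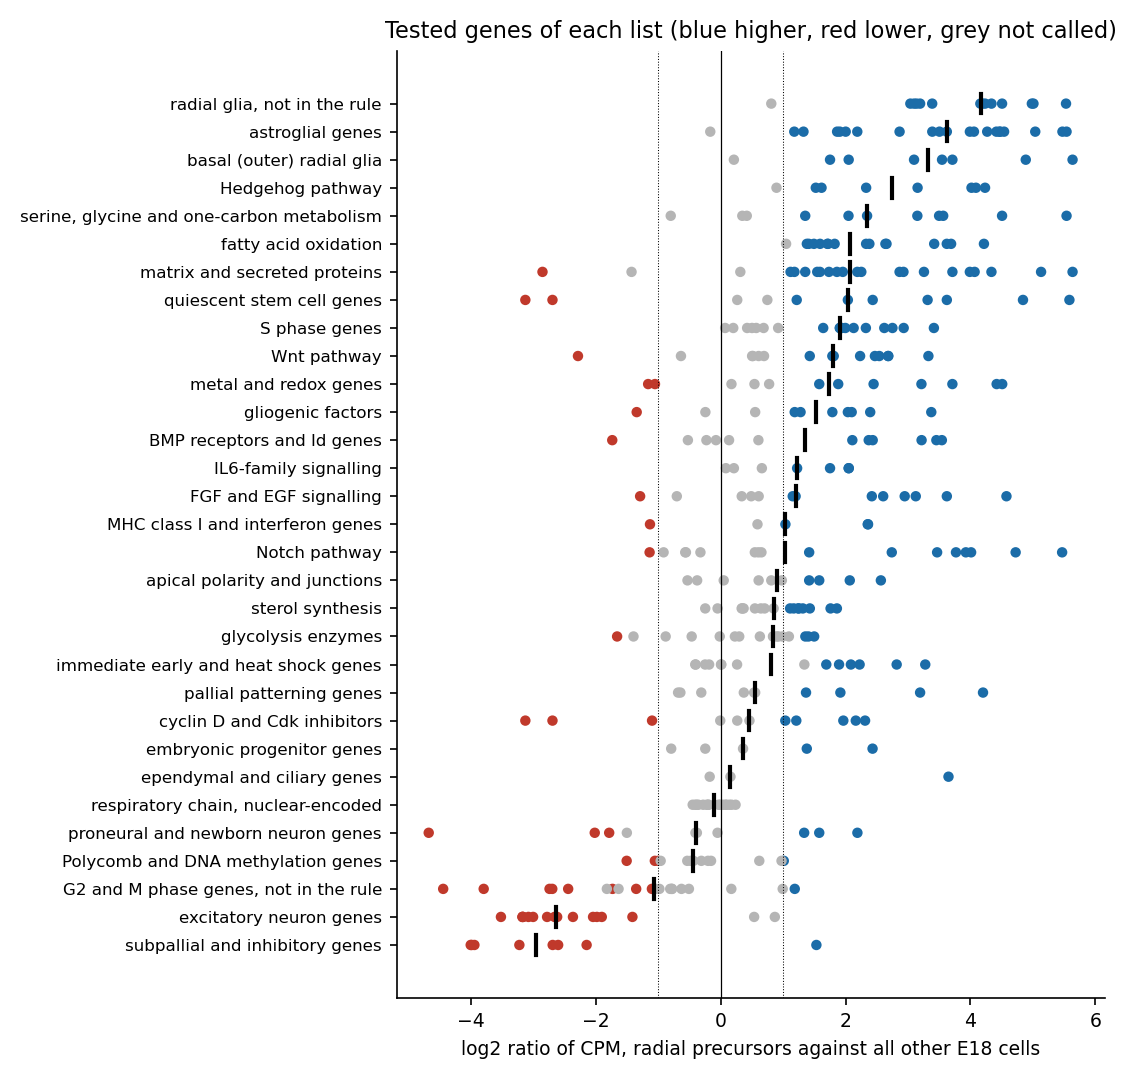
Log2 ratio of CPM between the 116 radial precursors and the 2515 other E18 cells for the tested genes of each list (1 point per gene, rule genes left out); blue points were called higher, red lower, grey neither, and black bars are medians. Medians ran from 4.18 for radial glia genes to -2.96 for subpallial and inhibitory genes, and all respiratory chain genes lay between the dotted lines at -1 and 1.

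The Notch pathway was read by role. Among the receptors Notch1 stood at 120 CPM against 10.9 in the other cells, Notch2 at 281 against 6.33 and Notch3 at 28.6 against 1.77. The ligand genes were low: Dll1 held 11 UMIs in the members, Dll3 14, Jag1 6 and Jag2 0, and none of them was called higher. The receptors thus stood high and the ligands low in the radial precursors. Of the glycosyltransferases that modify the receptors, Lfng stood at 119 against 4.51 CPM, whereas Mfng was called lower (9.93 against 21.9 CPM). The targets Hes1 (207 against 13.6 CPM), Hey1 (67.04 against 10.03 CPM) and Nrarp (217 against 15.9 CPM) were called higher. Hes1 also stood at 214 CPM in the microglial and vascular cells. Rbpj, the DNA-binding partner of the receptors, was not called (42.2 against 27.8 CPM). Numb, a receptor antagonist, was called higher from 9 UMIs. In all, 8 of 16 tested genes were called higher and 1 lower, with a median of 1.03. Maml1, Mib1 and Dner were not called, and Jag1 and Hey2 had too few UMIs to be called.

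The promoter of Hes5 is shown because this target is a marker of the rule and its promoter carries the motif of the Notch partner RBPJ. It is taken from RefSeq (GRCm38.p6, chr4:154960673-154960972, + strand, 300 bases from 250 before the gene's start). Capitals mark the motif GTGGGAA on either strand:
Hes5: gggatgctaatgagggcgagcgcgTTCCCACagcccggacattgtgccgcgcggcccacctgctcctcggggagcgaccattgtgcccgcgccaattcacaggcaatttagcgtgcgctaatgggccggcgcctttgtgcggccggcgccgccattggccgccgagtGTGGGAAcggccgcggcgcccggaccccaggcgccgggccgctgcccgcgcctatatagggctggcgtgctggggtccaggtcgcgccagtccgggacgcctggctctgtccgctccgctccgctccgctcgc
The match at -226 lies on the minus strand and the match at -83 on the plus strand. Of 32851 promoters of this length in the table, 6.38% held the motif on either strand and 0.256% held it more than once. The share was 6.56% among the genes called higher and 7.08% among all tested genes with a promoter in the table.

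Receptors and targets of other pathways were high as well. Of 8 Hedgehog genes 7 were called higher (median 2.74), including the receptor component Smo (72.0 against 14.3 CPM), the co-receptor genes Gas1 and Cdon, and the transcription factors Gli2 and Gli3. Of 16 Wnt genes 10 were called higher and 1, the ligand Wnt7b, lower (9.93 against 48.5 CPM); the secreted modulator Sfrp1 was the most abundant (1073 against 167 CPM). Of 13 FGF and EGF genes 8 were called higher, among them Fgfr3 (41.0 against 3.33 CPM), Egfr (32.3 against 4.18 CPM), Etv4 and Fgfbp3 (878 against 36.7 CPM), and Erbb4 was called lower, with 0 UMIs. Id1, Id3 and Id4, targets of BMP signalling, had log2 ratios of 3.54, 3.46 and 3.22, while Id2 was called lower (263 against 878 CPM). Here too the cycling radial cells were closer to the members. Per-cell medians of the Hedgehog list were 739 CPM in the members, 616 in the cycling radial cells and 0 in all other cells. For the Wnt list they were 2018.5, 1582 and 458 CPM, and for the FGF and EGF list 1284, 1043 and 173 CPM.

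Among 10 gliogenic factors 7 were called higher and 1 lower. Nfia and Zbtb20 stood at 545 and 710 CPM, with log2 ratios of 1.19 and 1.28, and Sox8, Sall3 and Prdm16 at 2.40, 3.37 and 2.04. Olig1 and Olig2, transcription factors of the oligodendrocyte lineage and of some progenitors, had log2 ratios of 1.79 and 2.10. Nfix was called lower (458 against 1165 CPM), and Nfib (-0.25) and Lhx2 (0.55) were not called.

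Cycling radial cells came next, as the comparison that keeps the marker, Eomes and Pdgfra conditions and changes the limit on mitotic genes. These 54 cells met those conditions but had more than 2 UMIs of the mitotic rule genes. They had a median of 9879 UMIs against 6676.5 in the radial precursors, and the part of depth was not tested. Of 4180 tested genes 194 were called higher in the radial precursors (4.64%) and 205 lower (4.9%). All 18 tested G2 and M phase genes outside the rule were called lower, with a median of -5.02: Cdc20, an activator of the anaphase complex, had 1 UMI against 250, Spc25 1 against 150, and Hmmr 0 against 73. Nusap1, Ccna2, Pimreg, Ccnb1 and Plk1 completed the 8 lowest. Because the groups were split on mitotic genes, these calls describe the split and are not a test. Of 19 S phase genes 11 were called lower, with a median of -1.05.

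Among the 8 highest genes in this comparison were Nts, Meg3, Peg10, Stmn2, Stmn4 and Mapt, which are expressed in neurons. Several of these rested on the neuron-rich cells: Nts stood at 5.24 with them and -1.31 (-7.20 to 2.95) without them, Peg10 at 4.38 and -0.31, Stmn2 at 2.38 and 0.31 (-0.30 to 0.93). Without them 152 genes were called higher and 205 lower, against 194 and 205 with them. The highest 8 by the same ranking were then Apoe, Aldh9a1, Luzp2, Dlgap1, Sparc, Dtna, Fgfbp3 and S100a16. Apoe stood at 2379 against 815 CPM, a log2 ratio of 1.55 (1.40 to 1.70), and Sparc at 650 against 236 CPM, 1.46 (1.18 to 1.75). Notch2 stood at 1.48 (1.06 to 1.91), Clu at 1.35, Ntrk2 at 1.39 and S1pr1 at 1.62.

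Most genes of the radial state did not differ 2-fold between these groups. Fabp7 stood at 18522 against 12876 CPM (log2 0.52), Vim at 1630 against 1542 CPM and Hes1 at 207 against 270 CPM. Of 14 radial glia genes 1, Veph1, was called higher. Astroglial genes had 4 of 17 called higher and 0 lower (median 0.71), and without the neuron-rich cells 4 of 16 (0.80). Olig2 was called lower in the radial precursors, at 144 against 357 CPM, and Olig1 stood at 248 against 427 CPM (-0.78).

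**Figure D3:**
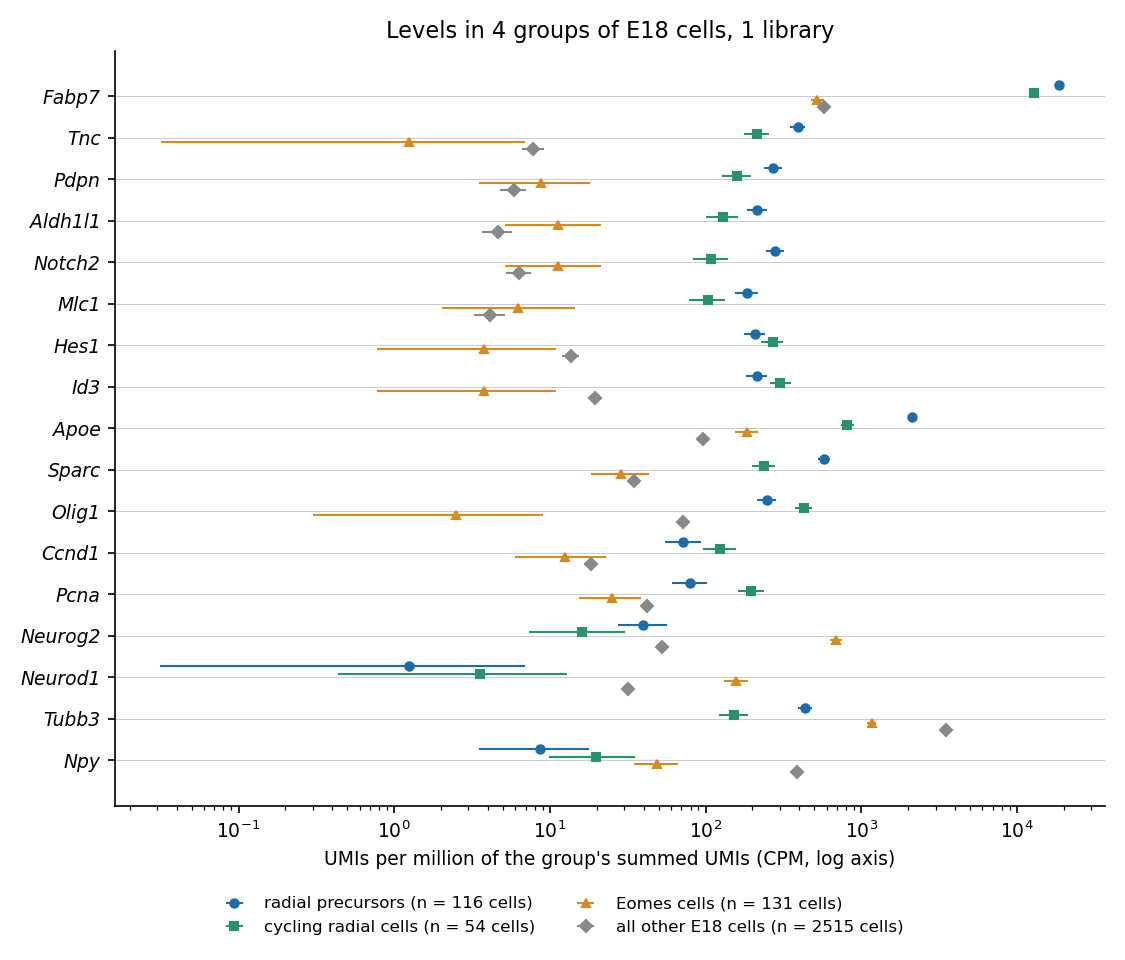
Levels of 17 genes in CPM (log axis) in the radial precursors, cycling radial cells, cells with 2 or more Eomes UMIs and all other E18 cells, with exact 95% Poisson intervals as bars; the last group includes the 54 cycling radial cells and the 131 Eomes cells. Both radial groups stand above the other groups from Fabp7 to Pcna, and the Eomes cells stand highest for Neurog2 (689 CPM) and Neurod1 (158 CPM).

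The Eomes cells, 131 cells with 2 or more Eomes UMIs and a median of 5821 UMIs, hold the intermediate progenitors that follow radial precursors in the excitatory lineage. Of 4726 tested genes 532 were called higher in the radial precursors (11.3%) and 366 lower (7.74%). Tnc had 314 UMIs in the radial precursors and 1 in the Eomes cells, and Fabp7 stood at 18522 against 523 CPM. Cyr61, Fgfbp3, Olig1, Baalc, Id3 and Pmp22 completed the 8 highest. Hes1 stood at 207 against 3.75 CPM.

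Genes of neurogenesis were among the lower ones. Neurog2, the proneural factor of the pallium, stood at 39.7 CPM (27.2 to 56.1) against 689 CPM, Neurod1 at 1 UMI against 126 and Sstr2 at 12.4 against 351 CPM. Pcp4, Rnd2, Igfbpl1, Scrt2 and Mfng completed the 8 lowest. Of 9 proneural genes 7 were called lower, with a median of -1.54. Enzymes of sterol synthesis were called higher in 13 of 15 cases, with a median of 1.79, although against all other cells only 8 of 17 were (median 0.85) and against cycling radial cells 0 of 16. Idi1 stood at 254 CPM in the radial precursors, 20.0 in the Eomes cells, 230 in the cycling radial cells and 75.2 in all other cells.

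The radial precursors were not uniform. Neurog2 had UMIs in 9 members (32 UMIs), of which 2 had 4 or more S phase genes. In these 9 cells Fabp7 stood at 2360 CPM against 19917 CPM in the other 107, a log2 ratio of -3.08 (-3.32 to -2.85), and Tnc at 31.3 against 421 CPM. Gadd45g, which is induced at the onset of neurogenesis, stood at 703 against 55.3 CPM, and Insm1, a factor of basal progenitors, at 406 against 147 CPM. Sparcl1, Fam181b and Id3 were at 0 UMIs in the 9 cells. Eomes had 2 of its 3 UMIs there. One of the 9 cells was neuron-rich; without neuron-rich cells Fabp7 stood at 2722 against 22256 CPM and Gadd45g at 901 against 60.4 CPM.

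The S phase genes divided the members more evenly. Among the 108 members that were not neuron-rich, 38 had 4 or more S phase genes (median 7682 UMIs per cell) and 70 had 0 to 3 (5898.5 UMIs). Of 2316 tested genes 75 were called higher in the former (3.24%) and 67 lower (2.89%); the S phase genes themselves, such as Mcm5, Uhrf1, Hells, Ung, Gins2 and Gmnn, set the split. Outside them, Olig1 had 180 UMIs in 18 of the 38 cells and 20 UMIs in 7 of the 70, a log2 ratio of 3.62 (2.95 to 4.36), and Olig2 had 105 against 11 UMIs (3.70). Ccnd1, the D cyclin that links growth factors to S phase entry, stood at 2.21 (1.29 to 3.22), the signalling inhibitor Spry2 at 268 against 94.8 CPM and Id3 at 1.25. Apoe stood at 1189 against 3252 CPM (-1.45), Clu at -1.12, Sparc at -1.07 and Cst3 at -1.10, and the gap junction gene Gja1 had 0 UMIs against 22. Of 13 tested astroglial genes 3 were called lower and 0 higher, with a median of -0.69. Fabp7 (-0.09), Tnc (0.00), Hes5 (0.08) and Hes1 (0.00) did not differ 2-fold. The split on 4 genes depends on how many are detected, and the part of depth in it was not tested. The neuron-rich cells were left out of it after the values were seen.

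**Figure D4:**
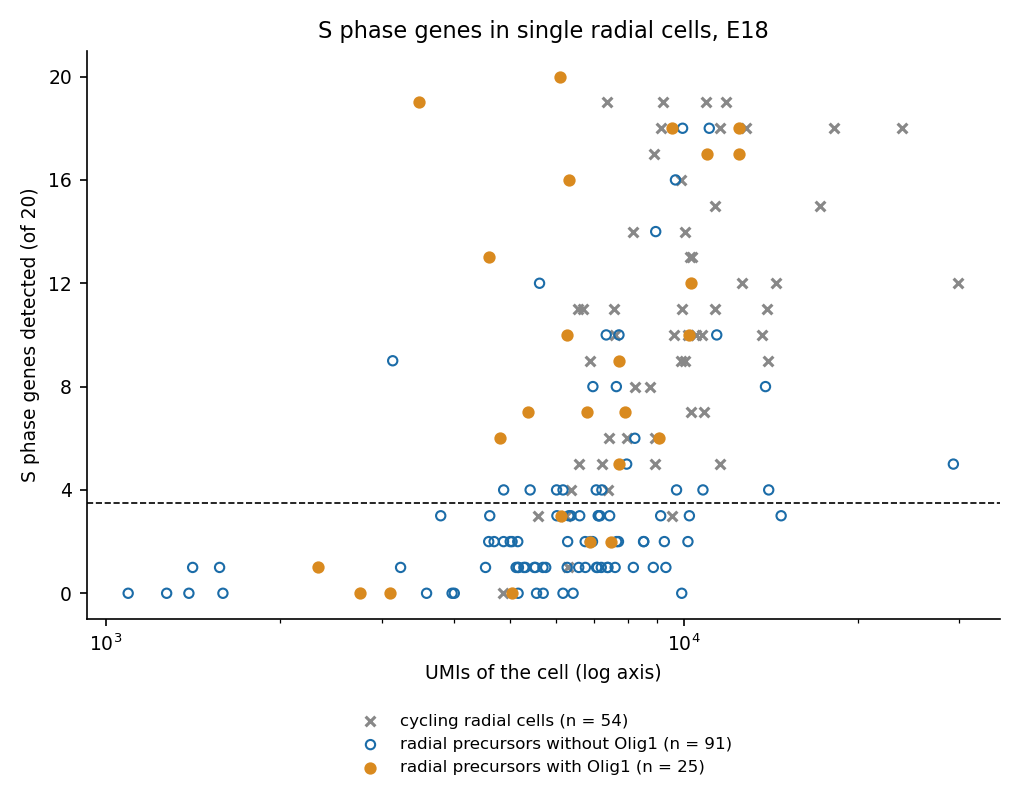
Number of 20 S phase genes detected in each radial cell against its UMIs (log axis), for radial precursors with (orange, 25) and without (open blue, 91) an Olig1 UMI and for cycling radial cells (grey crosses, 54). The dashed line separates cells with 4 or more S phase genes; 18 of the 25 cells with Olig1 lie above it.

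Because Olig1 stood out in that split, the members were also divided by it, a choice made after its values were seen. Olig1 (chromosome 16, 91269772 to 91271933, GRCm38) had UMIs in 25 members, 21.6% (14.5 to 30.1), against 4.45% of the other E18 cells, and in 17.6% against 3.32% after thinning to 3000 UMIs. It was at 0 in the 23 microglial and vascular cells, which allows up to 13.04% by the same limit. None of the 25 was neuron-rich, 16 had 6 or more rule markers, 16 also had Olig2 and 18 had 4 or more S phase genes. One cell held 46 of the 200 Olig1 UMIs. The 25 cells (median 6803 UMIs) were set against the 83 members without Olig1 that were not neuron-rich; of 2316 tested genes 61 were called higher (2.63%) and 181 lower (7.82%).

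The cells with Olig1 held fewer transcripts of astroglial and of pallial genes. Of these 25 cells, 18 were among the 38 members with 4 or more S phase genes above. This split therefore overlaps with that one, and their parts were not told apart. The S phase genes, which led to the split, are not read here. Egfr, the EGF receptor, had 20 UMIs in 11 of the 25 cells and 4 UMIs in 4 of the 83, a log2 ratio of 3.88 (2.31 to 5.89) on fewer than 50 UMIs. Ccnd2, a D cyclin of cortical progenitors, stood at 1718 against 764 CPM (1.17), Id3 at 1.36, Sall3 at 1.60 and Spry2 at 1.54. Serpine2 had 29 UMIs in 6 of the 25 cells and 0 in the 83, Dusp6 10 and 0, and Nptx2 27 and 1. Kcnc1, Grm5, Traf4 and Nkd1 completed the 10 highest with Olig1 and Olig2, most of them on few UMIs. Astroglial genes had 7 of 13 called lower and 0 higher, with a median of -1.17. Apoe stood at 717 against 2942 CPM (-2.04), Clu at 85.3 against 452 CPM, Ntrk2 at 56.9 against 289 CPM and Cst3 at 1348 against 3585 CPM. Notch2 stood at 148 against 356 CPM (-1.27).

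Of 7 tested pallial patterning genes 4 were called lower and 0 higher, with a median of -1.19 against -0.06 over all tested genes. Among them Dmrta2 stood at 45.5 against 114 CPM, Tfap2c at 34.1 against 117 CPM and Fezf2 at 45.5 against 104 CPM. Emx1, a pallial homeobox gene, had 3 UMIs in 3 of the 25 cells against 40 in the 83, a log2 ratio of -2.17 (-4.51 to -0.52), with fewer than 50 UMIs in both groups together. Gsx2, a homeobox gene of the subpallial ventricular zone, had 8 UMIs in 5 of the 25 cells and 1 in the 83, 4.56 (1.66 to 10.03). This ratio too rests on fewer than 50 UMIs. Of all 116 members, 107 had 0 UMIs of the subpallial and inhibitory gene list. Its other genes are not read in this split, and the origin of the cells was not tested. Lhx2 (-0.29) and Pax6 (-0.77) were not called, and Hes5 (0.32) and Fabp7 (-0.60) differed less than 2-fold. The melanogenic enzyme gene Dct had 1 UMI against 55, and Hs3st1 0 against 66.

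The cycling radial cells had Olig1 in 31 of 54 cells, 57.4% (43.2 to 70.8), and in 37.0% after thinning. Their levels of Apoe (815 CPM), Clu (141 CPM), Sparc (236 CPM) and Cst3 (1642 CPM) lay near those of the members with Olig1 and below those of the members without it.

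**Figure D5:**
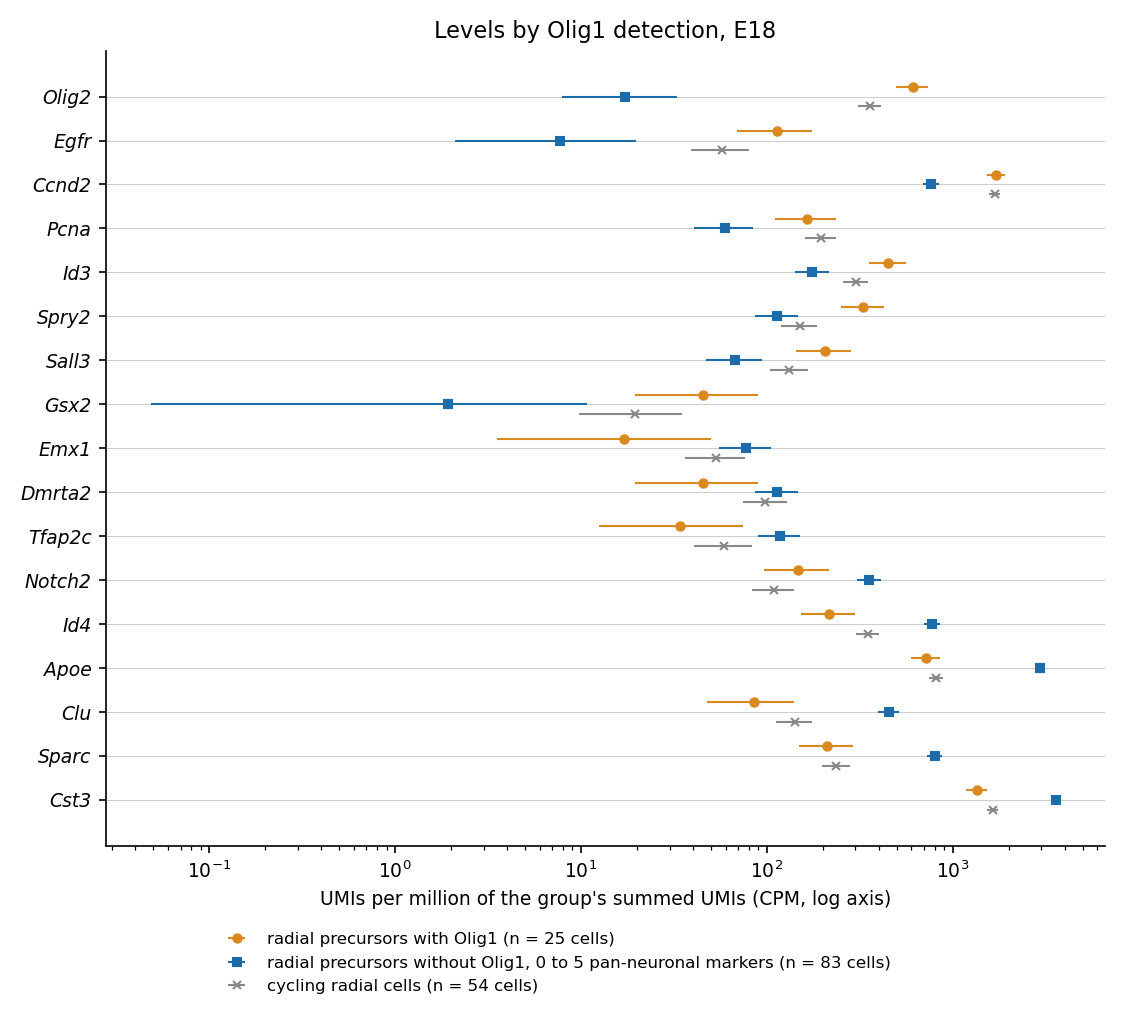
Levels of 17 genes in CPM (log axis) in radial precursors with Olig1 (25 cells), radial precursors without Olig1 that were not neuron-rich (83 cells) and cycling radial cells (54 cells), with exact 95% Poisson intervals as bars. Apoe, Clu, Sparc and Cst3 stand highest in the cells without Olig1, and Egfr and Gsx2 lowest.

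The same rule chose 175 of 2442 filtered cells in the P2 library. Age, mouse line, dissection and library cannot be told apart in this comparison. The P2 cells were deeper (median 18925 UMIs), and 69 of the 175 held 4 or more of 8 interneuron markers while 97 held 6 or more pan-neuronal markers, so the rule chose a mixed set there. After thinning to 3000 UMIs, 100 of 2518 E18 cells and 133 of 2322 P2 cells met the rule, and 1 and 8 of them held 4 or more interneuron markers. Of 8890 tested genes 404 were called higher in the E18 cells (4.54%) and 1744 lower (19.6%). The 6 lowest were Sp9, Gad2, Dlx1, Dlx5, Bcas1 and Gad1, 5 of them genes of inhibitory neurons; with the 69 interneuron-marker cells left out they were Fam107a, Gatm, Timp4, Gpr37l1, Ramp1 and Gabrg1. The 6 highest were Dct, Nts, Creg2, Hddc3, Glo1 and Mfap4, of which Nts rested on 1 neuron-rich cell. Without the interneuron-marker cells, 277 genes were called higher at E18 and 1169 lower. In that comparison 9 of 19 S phase genes were called higher at E18 and 0 lower. The limit of 2 mitotic UMIs did not scale with depth. Among filtered cells with 4 or more rule markers, 58 of 206 at E18 and 316 of 608 at P2 had more than 2. The part of this limit in the S phase calls was not tested. Over all tested genes the share called higher was 4.54% with the interneuron-marker cells kept. The matching share without them is not given here. Dct, lacking from the E18 members with Olig1 but for 1 UMI, had UMIs in 26 of the 116 members and in 15 of the 54 cycling radial cells.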

How the data were processed

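Per the labels, polyadenylated RNA of sorted living cells was sequenced from 1 E18 and 1 P2 mouse library. The deposited values are raw UMI counts per gene and barcode, made by the authors with cellranger 4.0.0 per the file headers and with Cell Ranger 4 against mm10 per the submitters' processing notes. The deposited gene and barcode lists hold names only, a unit recorded as other. The sources used here give no settings for cell calling. The libraries shared 0 barcodes.

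The members and gene lists were chosen with earlier results of these data known. UMIs were summed per group and scaled to CPM (Python 3.11.15, numpy 2.4.6, scipy 1.17.1, pandas 2.3.3). Intervals are exact: Poisson for sums, conditional for ratios, Clopper-Pearson for shares; a count of 0 allows 3 counts of the total. The procedure was tested on simulated data. Named genes had 50 or more CPM in 1 of both groups and were ranked by the interval bound nearest 0; rule, mitochondrial, ribosomal, haemoglobin, sex-linked and predicted genes were left out. By this rule 20 higher and 10 lower genes were named against all other E18 cells, 8 and 8 against the cycling and the Eomes cells, 6 and 6 against P2. From the lists, members were named by level and by extreme ratios, and further members after their values were seen.

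Doublets were kept and scored with Scrublet (scanpy 1.11.5, expected rate 0.05), which called 42 E18 cells (1.60%), 7 of them members; an alternative left out the highest 5% of scores (156 E18 cells, 9 members). TMM factors came from edgeR 4.0.16 (R 4.3.3). Coordinates of listed genes are from GENCODE vM21, matched by gene ID for 563 of 563 genes. Other alternatives changed the cell filter, the marker and cycle limits, the UMI minimum, the weighting of cells and the comparison group; the counts of calls without neuron-rich members against the cycling and the Eomes cells and in the S phase split, those without P2 interneuron-marker cells and the Olig1 split were chosen after seeing the data.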

Additional observations from a re-analysis of the deposited data

Results flagged for a closer look

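The cell filter removed 291 E18 barcodes, and 2 of these met the rest of the rule, a signal in data that no main comparison used. Only the alternative without a cell filter included them, with 118 members. The 2 barcodes are 0.687% of the removed barcodes (0.0833 to 2.46). One had 22.3% mitochondrial UMIs, above the limit, and the other fell under the gene minimum; their Fabp7 level was 13431 CPM.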

How the results depend on the processing

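The share of radial precursors, 4.41%, was 5.74% with 3 markers as the limit and 3.31% with a cycle sum of 0, and lay between 3.91% and 4.44% under the other 6 settings tried for it. With 3 markers, 782 genes were called lower against all other E18 cells and 446 higher against the cycling radial cells. With the mean of per-cell CPM, 2195 were lower against all other cells. With no minimum of UMIs, 603 genes were higher and 501 lower against the cycling radial cells, 1331 and 778 against the Eomes cells, and 733 higher against P2. All other counts stayed within 1.5 times. Peg10 turned to -0.23 against all other cells with 5 markers, and to -0.31 against the cycling radial cells without the neuron-rich members. Nts turned to -1.45 against the cycling radial cells and -1.52 against P2 with 5 markers, and to -1.31 and -1.54 without the neuron-rich members. TMM scaling moved every log2 ratio by -0.14 against all other cells and by 0.12 against P2. Each list median was held against the counting interval of the gene nearest to it, set around the median. Of 248 list medians under the alternatives 225 stayed within this interval, 23 moved and 0 reversed. Only lists with a median log2 ratio of 1 or more either way could count as reversed. For named genes, held against their own intervals, these numbers were 171, 68 and 1 of 240 against all other E18 cells. In the other comparisons they were 192, 23 and 5 of 220. The cause of these moves was not tested. No paired analysis was possible because each age has 1 library. Precision is limited by 116 cells of 1 library and by single cells that hold most UMIs of a gene, and variation between animals cannot be read from these data.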
